A study of Mus musculus with 2 samples.

Results

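Examined here were 10 genes of the cytokine and NF-kappaB pathway, chosen by symbol, and all 10 were found among the 32285 genes of the count matrices. They are the cytokines Il1b, Il1a, Tnf, Il6 and Il18, the inflammasome sensor Nlrp3, the prostaglandin synthase Ptgs2, the receptors Tlr2 and Tlr4, and Nfkbia, which encodes the NF-kappaB inhibitor IkappaB alpha. Both groups were wild-type C57BL/6 mice aged 6 to 8 weeks with a contusion of the spinal cord at thoracic level 10, made by a 5 g rod of 1 mm diameter dropped from 6 cm. The AEVs group received vesicles derived from athletes (athlete-derived extracellular vesicles, 100 µg of protein in total, in PBS), and the PBS group received the carrier alone. Each group was injected through the tail vein in a volume of 100 µL on 5 days, and all mice were given antibiotics around surgery. Cord tissue was taken on day 7 after injury, and 3 mice per group were pooled into 1 library of single nuclei. No uninjured cord was analysed here, so no value below says how far a gene stood from its level in uninjured tissue.

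NF-kappaB is a family of transcription factors that inhibitor proteins such as IkappaB alpha hold in the cytoplasm. Toll-like receptors and the receptors for TNF and IL-1 activate kinases that mark IkappaB alpha for destruction, after which NF-kappaB enters the nucleus and raises transcription of cytokine genes and of Nfkbia itself, a negative feedback loop. IL-1 beta and IL-18 are made as precursors that an inflammasome built around NLRP3 can cut to their active forms. In injured spinal cord, microglia and infiltrating macrophages are the best known sources of these cytokines.

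The design has 1 library in each group, so no p-value and no spread between animals can be given. Every ratio below is AEVs over PBS in UMIs (unique molecular identifiers, which count RNA molecules) per 1000000 UMIs of the same nuclei (CPM), with an exact 95% interval in brackets that covers counting error alone. A gene counted as measured at 50 UMIs in both libraries together, and as past the fold at a ratio of at least 1.5 or at most 0.667, which is a size and not a test. Levels were not compared between genes, since the counts are not per length. After filtering, 15647 nuclei of the AEVs library and 13859 of the PBS library remained, with medians of 2407 and 2589 UMIs per nucleus. The median share of mitochondrial UMIs was 0.141% in AEVs and 0.250% in PBS nuclei, and whether either difference bears on the ratios was not tested. Of the cell barcodes, 177 occurred in both libraries.

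Cell classes were rebuilt here from clusters and fixed marker lists, and the suffix "-like" marks that. The classes that matter most for these genes were microglia-like (1235 AEVs and 972 PBS nuclei, led by Siglech, Gpr34, Tmem119 and P2ry12), lipid-loaded phagocyte-like (800 and 1007, led by Atp6v0d2 and Gpnmb), macrophage-like (126 and 194, led by Mrc1 and F13a1), fibroblast-like (573 and 972, led by Slc47a1 and Ranbp3l) and endothelial-like (352 and 232, led by Slco1a4 and Cldn5). Nuclei with the markers of spinal cord tissue were the most numerous, among them neuron-like (4753 and 3455), oligodendrocyte-like (2909 and 2185) and astrocyte-like nuclei (1162 and 932). In all, 13 classes had at least 100 nuclei in each library. Marker sums were not equal between libraries within a class. In microglia-like nuclei the 10 microglial markers summed to 12090 CPM in AEVs and 12381 CPM in PBS nuclei, while the neutrophil list summed to 456 and 769 CPM with 8 of its 10 genes lower and Cxcr2 and Ltf at 0 in both.

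The promoters of the members are shown first, because NF-kappaB acts through a short site, the kappaB element. All 10 genes are protein-coding in GENCODE M21 on GRCm38. Il1b (chr2:129364570-129371139, minus strand) and Il1a (chr2:129299610-129309972, minus strand) are neighbours, and the other members lie on 8 other chromosomes: Tnf (chr17:35199381-35202007, minus), Il6 (chr5:30013114-30019981, plus), Nfkbia (chr12:55489410-55492647, minus), Nlrp3 (chr11:59541568-59566956, plus), Ptgs2 (chr1:150100031-150108227, plus), Tlr2 (chr3:83836272-83841767, minus), Tlr4 (chr4:66827584-66930284, plus) and Il18 (chr9:50554827-50581840, plus). RefSeq promoters (GRCm38.p6, 250 bases before to 50 after the start) were at hand for 9 of the 10. The kappaB consensus of 10 letters, searched on both strands, was found in 2779 of 32851 such promoters (8.46%) and in those of 4 members.

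The windows below, of 30 bases each, show the match in capitals and its flanks in lower case, 5′ to 3′ on the gene's own strand. They are the Il6 window at chr5:30013060-30013089 (plus strand, match starting 44 bases before the start), Nfkbia at chr12:55492657-55492686 (minus, 29 before), Nlrp3 at chr11:59541373-59541402 (plus, 186 before), and Tlr2 at chr3:83841761-83841790 (minus, 172 before) and chr3:83841597-83841626 (minus, 8 before). A further Tlr2 match begins 1 base upstream of the first and overlaps it.
Il6: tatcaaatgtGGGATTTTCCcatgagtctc
Nfkbia: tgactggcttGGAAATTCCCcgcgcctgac
Nlrp3: ggcttctgcaGGGAACCCCCgggaattctg
Tlr2, upstream: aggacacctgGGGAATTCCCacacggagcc
Tlr2, near the start: ccctgacctgGGGACATCCCcttccctcac

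A match is a description of letters and not a bound site. The 4 members with one did not move together: over all nuclei the ratio was 1.76 for Nfkbia and 1.22 for Tlr2, and it was 0.866 for Nlrp3 and 0.286 for Il6. Of the pathway lists described further on, 12 of 18 promoters of NF-kappaB response genes and 4 of 5 of the NF-kappaB subunits held the consensus. The NF-kappaB kinases and adaptors had 2 of 17 and the cytokine receptors and antagonists 1 of 16. Inhibitors and deubiquitinases had 7 of 14, Toll-like receptors and adaptors 4 of 20 and the inflammasome list 3 of 16. The anti-inflammatory brakes had 3 of 14 and the prostaglandin list 1 of 13. The response list was made of genes known to respond to NF-kappaB and shares genes with other lists, so its count is not independent.

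Over all nuclei, 5 of the 10 genes were higher and 5 lower in AEVs, where 61.9% of all measured genes were higher. Of the lower ones, Il1b, Il1a and Nlrp3 had ratios of 1.00, 1.18 and 1.01 when both libraries were weighted to the same mix of clusters. Past the fold were Tnf and Nfkbia on the higher side and Il6 and Ptgs2 on the lower side. Of all 18964 genes measured, 10.4% were past the fold higher and 4.64% past it lower, with a median log2 ratio of 0.10. Few genes went as far as Il6: 0.322% of all measured genes were as low or lower, and for Ptgs2 the share was 1.67%. As far or farther on the higher side were 0.965% of genes for Tnf and 5.10% for Nfkbia. These shares are not matched for counts, and Tnf and Il6 were counted rarely, which widens a ratio's counting error. Past 2-fold were 3.00% of genes higher and 1.48% lower at a minimum of 50 UMIs. At a minimum of 200 UMIs they were 1.48% and 0.861%. Over all nuclei, fewer cells of a type and less RNA per cell cannot be told apart, so the classes follow.

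**Figure D1:**
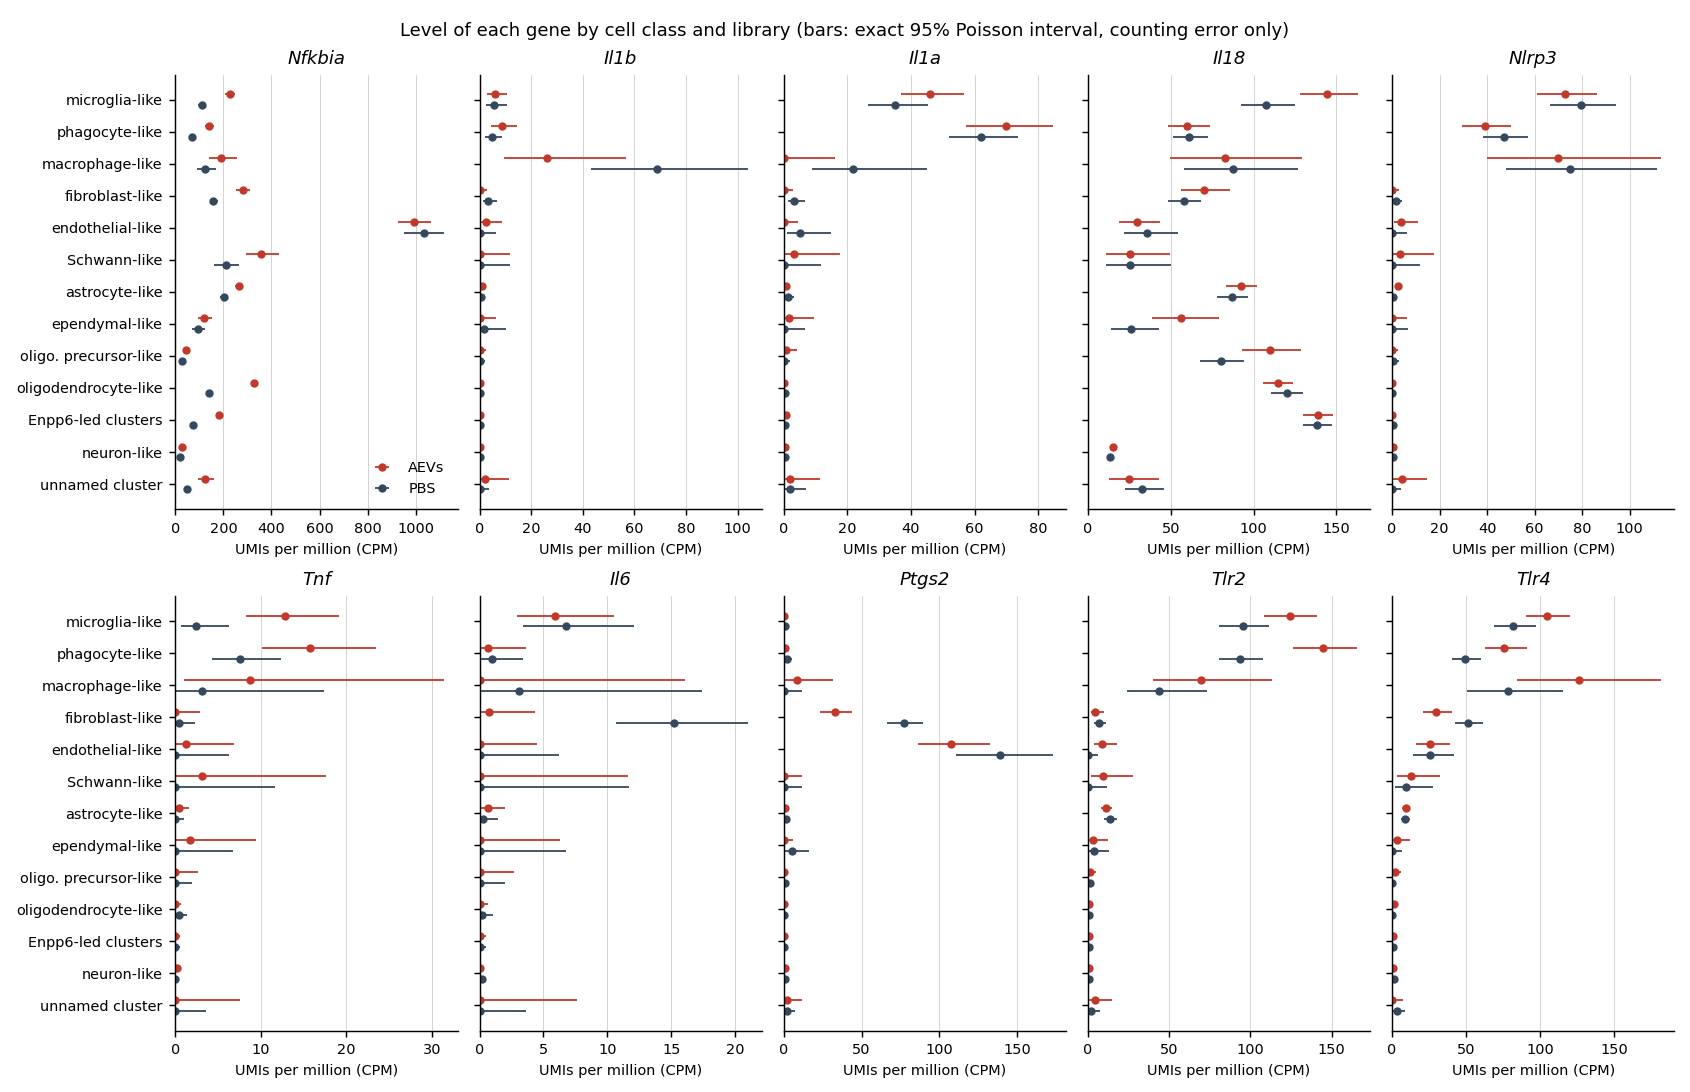
Level of each of the 10 genes (x axis, CPM of the class) in 13 cell classes (rows), AEVs above PBS, with exact 95% Poisson intervals that cover counting error. Nfkbia in endothelial-like nuclei (993 CPM in AEVs, 1033 CPM in PBS) stands above all other classes, Ptgs2 is highest in endothelial-like and fibroblast-like nuclei, and the cytokines Il1a, Il1b and Tnf in the myeloid classes.

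Nfkbia, the feedback inhibitor of NF-kappaB, was the best counted member, with 7593 UMIs in AEVs and 4432 UMIs in PBS nuclei (110.3 and 62.7 CPM, ratio 1.76 [1.69, 1.83]). At least 1 Nfkbia UMI was present in 30.2% of AEVs nuclei and 20.8% of PBS nuclei. After every nucleus was thinned to 1000 UMIs these shares were 15.1% and 8.56%, over the 14177 of 15647 AEVs and 12389 of 13859 PBS nuclei that had that many UMIs. The level was higher in AEVs in 12 of 13 classes, past the fold in 9, and the interval lay above 1 in 10. Among 1530 genes measured in every class, 11 (0.719%) were past the fold higher in at least 9 classes, and 224 (14.6%) were higher in at least 12.

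The largest Nfkbia counts came from the oligodendrocyte lineage. Oligodendrocyte-like nuclei held 328 CPM in AEVs and 141 CPM in PBS (1837 and 731 UMIs, ratio 2.32 [2.13, 2.53]), where 13.7% of all genes were past the fold higher. In 2 further oligodendrocyte-lineage clusters, Nfkbia stood at 182 CPM in AEVs and 73.7 CPM in PBS (2.47 [2.22, 2.74]), against a background of 14.4%. They are called Enpp6-led here because Enpp6, a listed marker of differentiating oligodendrocytes, was among their 10 leading genes, which left them unnamed. Enpp6 was not their first gene: those were Anln and Apod in 1 cluster and Art3 and Nkx2-9 in the other. Both raised all 10 oligodendrocyte markers and 3 of the 6 differentiating markers. Oligodendrocyte precursor-like nuclei had lower levels, 45.5 CPM in AEVs and 26.5 CPM in PBS (1.71 [1.16, 2.54], background 8.95%), and 1.43 after thinning. Their 6 differentiating markers summed to 2677 CPM in AEVs and 4109 CPM in PBS, with all 6 lower. The 10 oligodendrocyte markers summed to 2208 and 3693 CPM there, with 9 lower and 1 higher. The part of these sums in the precursor-like Nfkbia and Il18 ratios was not tested.

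Immune classes showed a like difference in Nfkbia. Microglia-like nuclei held 227 CPM in AEVs and 110.2 CPM in PBS (424 and 179 UMIs, 2.06 [1.72, 2.47]), where 12.3% of all genes were past the fold higher and 5.66% past it lower. Phagocyte-like nuclei held 140.4 CPM in AEVs and 71.2 CPM in PBS (1.97 [1.59, 2.45]), with backgrounds of 10.7% higher and 7.06% lower. Macrophage-like nuclei, few in number, held 44 UMIs in AEVs and 40 UMIs in PBS (192 and 125 CPM), and their interval of [0.976, 2.41] around 1.53 includes 1; the background there was 10%. As a mean over nuclei the macrophage-like ratio was 1.28, which is not past the fold. Of the genes measured, 2.38% were as far or farther higher than Nfkbia in microglia-like nuclei, and 2.37% in phagocyte-like nuclei.

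Stromal and glial classes were less uniform. Fibroblast-like nuclei had 281 CPM of Nfkbia in AEVs and 159 CPM in PBS (1.77 [1.53, 2.05]), where 11.9% of genes were past the fold higher and 7.08% lower. Schwann-like nuclei had 357 CPM in AEVs and 209 CPM in PBS (1.71 [1.25, 2.35], background 9.86%). The unnamed cluster led by Slc18a3, Prph and neurofilament genes had 60 UMIs in AEVs and 49 UMIs in PBS (124 and 48.5 CPM, 2.55 [1.72, 3.79], background 10.3%). Its nuclei were shallow (medians of 906.5 UMIs in AEVs and 879 in PBS), with median mitochondrial shares of 2.61% and 2.48%. Oligodendrocyte and neuron markers tied in this cluster, and its ratio ranged from 1.88 to 3.54 over the settings run. Below the fold were astrocyte-like nuclei with 264 CPM in AEVs and 202 CPM in PBS (1.31 [1.19, 1.43]), neuron-like nuclei with 26.4 and 18.7 CPM (1.41 [1.29, 1.55]) and ependymal-like nuclei with 121 and 95.5 CPM (1.26 [0.872, 1.85]).

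Endothelial-like nuclei were the exception. They held the highest Nfkbia level of any class, 993 CPM in AEVs and 1033 CPM in PBS, from 811 and 609 UMIs, and the ratio was 0.961 [0.864, 1.07]. Single endothelial-like nuclei reached 48 Nfkbia UMIs in AEVs and 45 UMIs in PBS. The upper end of that interval lies below the lower end in microglia-like, phagocyte-like, fibroblast-like, oligodendrocyte-like and astrocyte-like nuclei; with 1 library per group the difference between classes was not tested across animals. In the order of levels pooled over both libraries, endothelial-like came first, neuron-like last and oligodendrocyte precursor-like next to last, and several neighbours had overlapping intervals in both libraries, such as microglia-like and macrophage-like nuclei. Several marker lists of other cell types summed lower in AEVs endothelial-like nuclei: 5 erythroid genes summed to 741 CPM in AEVs and 2041 CPM in PBS with all 5 lower, the 10 microglia markers to 233 and 433 CPM with all 10 lower, and the 10 fibroblast markers to 321 and 811 CPM with 9 lower. Their part in the endothelial-like results was not tested.

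**Figure D2:**
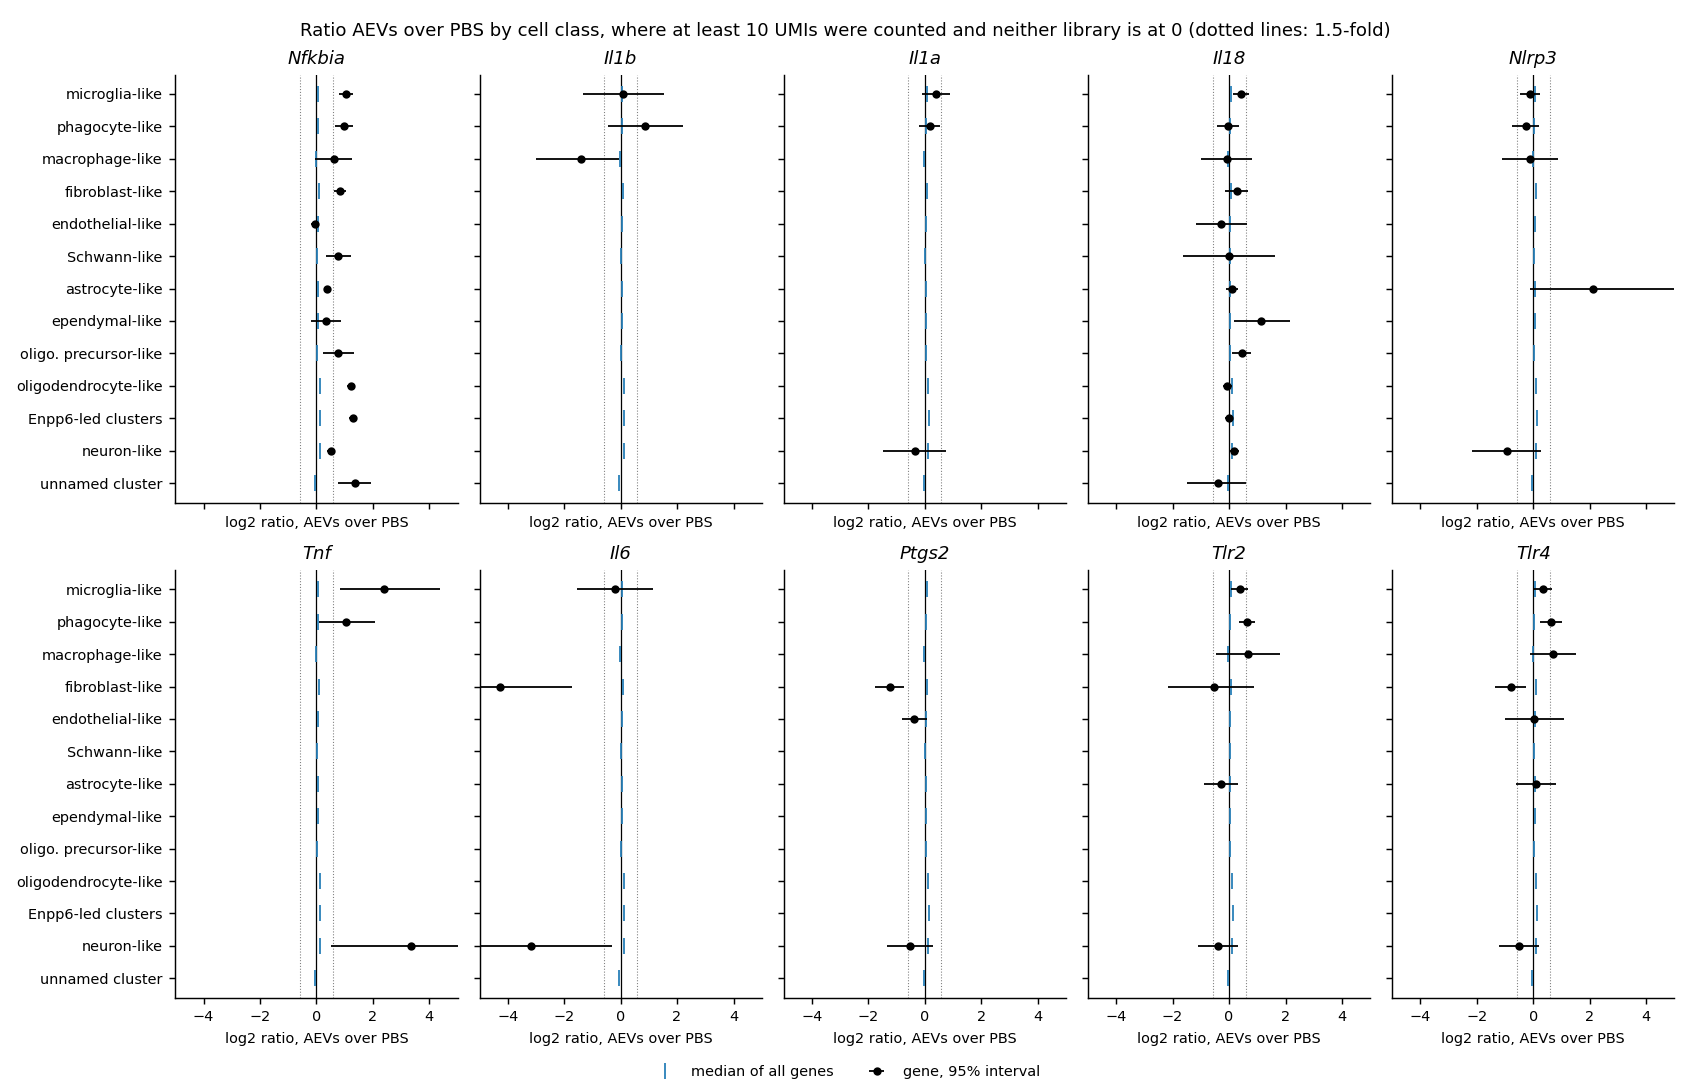
Log2 ratio of AEVs over PBS (x axis) by cell class (rows) for each gene, with exact 95% counting intervals, for classes with at least 10 UMIs and neither library at 0; blue ticks mark the median of all measured genes of the class. Nfkbia lies right of the 1.5-fold line in 9 classes and at 0.961 in endothelial-like nuclei, and Tlr4 lies right of 0 in microglia-like and phagocyte-like nuclei and left of it in fibroblast-like nuclei.

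A finer clustering gave both microglia-like clusters and all 4 fibroblast-like clusters a higher Nfkbia level in AEVs, whereas the phagocyte-like clusters were split. Of the microglia-like clusters, the one led by Siglech (871 AEVs and 897 PBS nuclei) had 222 CPM in AEVs and 115 CPM in PBS (1.93 [1.59, 2.35]). The other, led by Ccl12, consisted of 359 AEVs nuclei and 72 PBS nuclei and had 236 CPM in AEVs and 56.6 CPM in PBS (4.17 [2.06, 9.85]), the PBS value resting on 8 UMIs. Of the phagocyte-like clusters, the one led by Ccl4 had 159 CPM in AEVs and 73.6 CPM in PBS (2.16 [1.69, 2.78]), and the one led by Atp6v0d2 had 60.6 CPM in AEVs and 66.7 CPM in PBS (0.909 [0.494, 1.61]). The small one led by Spp1 (23 AEVs and 36 PBS nuclei) held 8 and 5 UMIs (2.71 [0.781, 10.5]). The ratios of the 4 fibroblast-like clusters ran between 1.71 and 2.44, and those of 7 oligodendrocyte-like clusters between 2.05 and 2.90.

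**Figure D3:**
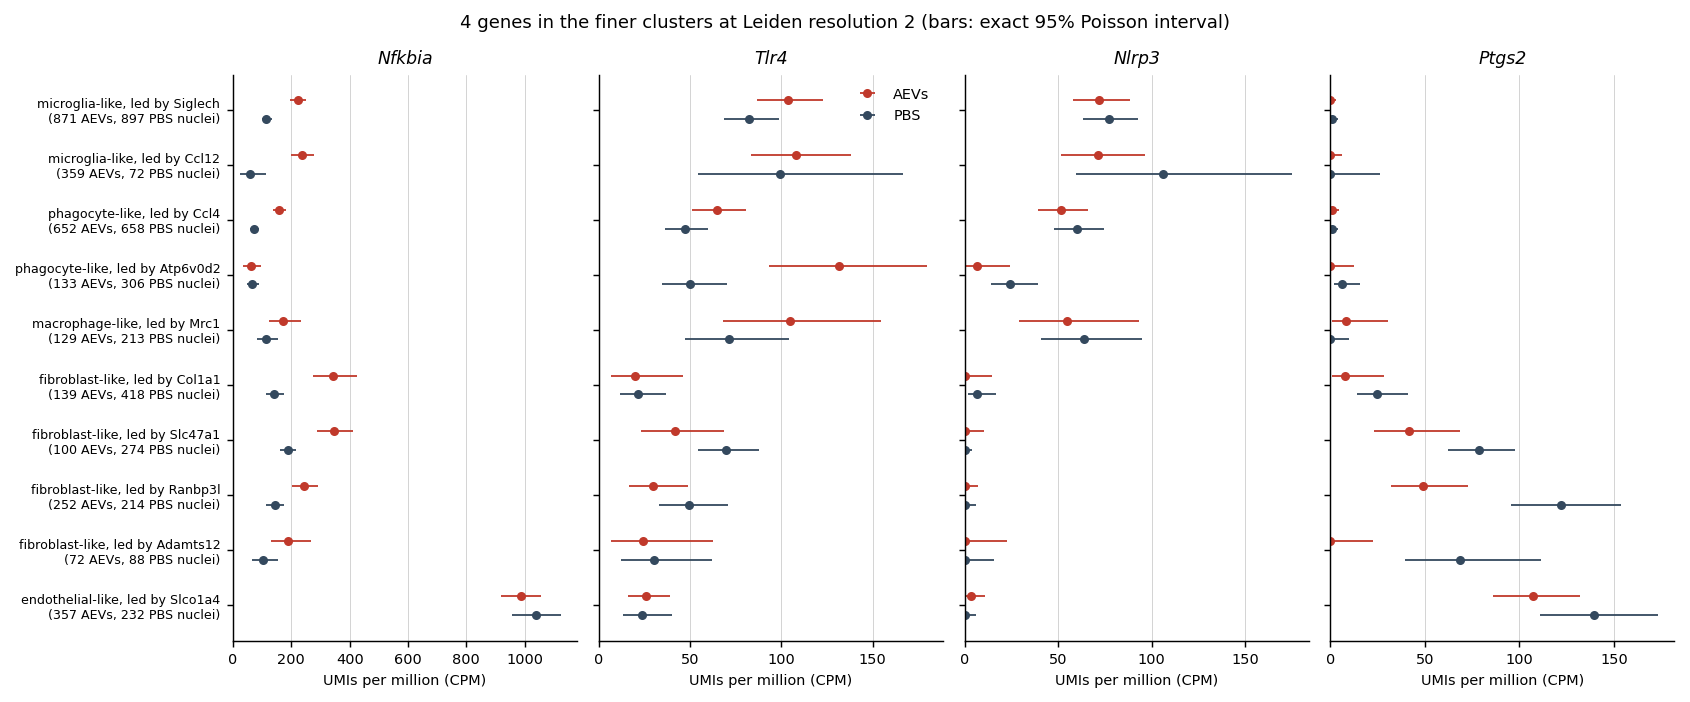
Nfkbia, Tlr4, Nlrp3 and Ptgs2 (x axes, CPM) in the finer clusters of 5 classes (rows, with their numbers of nuclei), AEVs above PBS, with exact 95% Poisson intervals. In the phagocyte-like cluster led by Atp6v0d2, Nfkbia is 60.6 CPM in AEVs and 66.7 CPM in PBS while Tlr4 is 131 CPM in AEVs with a counting interval above that of PBS; Ptgs2 is lower in AEVs in all 4 fibroblast-like clusters.

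The receptors upstream of NF-kappaB were found mainly in myeloid nuclei. Tlr2, a receptor for bacterial lipoproteins, stood at 145 CPM in AEVs and 93.5 CPM in PBS in phagocyte-like nuclei (220 and 197 UMIs, 1.55 [1.27, 1.89]). Microglia-like nuclei had 124 CPM in AEVs and 95.4 CPM in PBS (232 and 155 UMIs, 1.30 [1.06, 1.60]). In macrophage-like nuclei 16 Tlr2 UMIs in AEVs and 14 UMIs in PBS gave 1.59 [0.728, 3.52]. The phagocyte-like ratio was 1.48 under TMM scaling and 1.39 when the nuclei were clustered without the pathway genes, both short of the fold. Its larger finer clusters were short of the fold as well: the one led by Ccl4 had 169 CPM in AEVs and 125 CPM in PBS (204 and 173 UMIs, 1.35 [1.10, 1.67]), and the one led by Atp6v0d2 had 50.5 CPM in AEVs and 36.4 CPM in PBS (15 and 24 UMIs, 1.39 [0.677, 2.76]). The small cluster led by Spp1 (23 AEVs and 36 PBS nuclei) held 6 and 3 UMIs, a ratio past the fold with a wide interval (3.38 [0.723, 20.9]). Outside the myeloid classes the astrocyte-like level was highest, 11.1 CPM in AEVs and 13.5 CPM in PBS (0.826 [0.546, 1.25]). Over all nuclei the Tlr2 ratio was 1.22 [1.08, 1.38], and 29.5% of measured genes were as far or farther higher.

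At least 1 Tlr2 UMI was seen in 19.2% of AEVs and 14.7% of PBS phagocyte-like nuclei, at median depths of 1747.5 and 1956 UMIs. In the far deeper neuron-like nuclei (medians 7605 and 10152 UMIs), taken as the level that stray RNA can give, the shares were 0.631% in AEVs and 1.07% in PBS. After thinning, 12.6% of AEVs and 8.44% of PBS phagocyte-like nuclei held a Tlr2 UMI. Markers of other cell types also differed in phagocyte-like nuclei: the 10 macrophage markers summed to 1753 CPM in AEVs and 2943 CPM in PBS, with 1 higher and 7 lower and Lyve1 and Cbr2 at 0 in both libraries. The 10 fibroblast markers summed to 102 CPM in AEVs and 315 CPM in PBS, with 9 lower. The part of these sums in the phagocyte-like results was not tested.

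Tlr4, the receptor for lipopolysaccharide, differed in direction between classes. Phagocyte-like nuclei held 75.8 CPM in AEVs and 49.3 CPM in PBS (115 and 104 UMIs, 1.54 [1.17, 2.02]), and microglia-like nuclei 104 CPM in AEVs and 81.9 CPM in PBS (195 and 133 UMIs, 1.27 [1.02, 1.60]). Fibroblast-like nuclei held 29.5 CPM in AEVs and 51.5 CPM in PBS (38 and 122 UMIs, 0.573 [0.387, 0.831]). Over all nuclei 490 UMIs in AEVs and 486 UMIs in PBS gave 1.03 [0.911, 1.18]. Macrophage-like nuclei had the highest pooled level, 126 CPM in AEVs and 78.2 CPM in PBS, but with 29 and 25 UMIs the interval [0.914, 2.88] around 1.62 includes 1, and the ratio was 1.01 after thinning. As a mean over nuclei the phagocyte-like ratio was 1.31, and with doublets kept the fibroblast-like ratio was 0.685, both short of the fold. The endothelial-like level was 25.7 CPM in AEVs and 25.5 CPM in PBS (1.01 [0.497, 2.11]).

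Among the finer clusters, the phagocyte-like nuclei led by Atp6v0d2 carried the largest Tlr4 gap, with 39 UMIs in 133 AEVs nuclei and 33 UMIs in 306 PBS nuclei (131 CPM in AEVs, ratio 2.63 [1.61, 4.31]). The cluster led by Ccl4 had 64.6 CPM in AEVs and 46.9 CPM in PBS (1.38 [0.978, 1.94]), and the small one led by Spp1 held 1 UMI in each library. In fibroblast-like nuclei the 4 finer clusters gave ratios of 0.597 to 0.916, all with intervals that include 1. The fibroblast-like class itself differed in its other markers: the 10 mural cell markers summed to 1456 CPM in AEVs and 598 CPM in PBS and all 10 were higher in AEVs, the 10 macrophage markers summed to 262 and 664 CPM, and the 10 fibroblast markers to 7706 and 9864 CPM. The part of these sums in the Tlr4 and other fibroblast-like results was not tested.

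Tnf, a cytokine of the acute inflammatory response, was counted rarely but more often in AEVs. Over all nuclei there were 68 Tnf UMIs in 64 AEVs nuclei and 26 UMIs in 26 PBS nuclei (0.988 and 0.368 CPM, 2.68 [1.69, 4.40]). No nucleus held more than 3 Tnf UMIs in AEVs or more than 1 UMI in PBS, so no single nucleus made the difference. Microglia-like nuclei had 24 UMIs in 22 AEVs nuclei and 4 UMIs in 4 PBS nuclei (12.8 and 2.46 CPM, 5.21 [1.79, 20.7]). Phagocyte-like nuclei had 24 UMIs in AEVs and 16 UMIs in PBS, 1 in each nucleus (15.8 and 7.59 CPM, 2.08 [1.06, 4.20]). Of the finer phagocyte-like clusters, the one led by Ccl4 held 23 UMIs in AEVs and 13 UMIs in PBS (2.03 [0.987, 4.37]). That interval includes 1. The one led by Atp6v0d2 (133 AEVs and 306 PBS nuclei) held 1 and 3 UMIs (0.741 [0.0141, 9.23]), and the one led by Spp1 held none. The part of the cluster mix in the phagocyte-like ratio was not tested.

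Shares of nuclei gave the same direction for Tnf. Among microglia-like nuclei 1.78% [1.12, 2.68] in AEVs and 0.412% [0.112, 1.05] in PBS held a Tnf UMI, and 0.917% and 0.116% after thinning, which is 10 nuclei in AEVs and 1 in PBS. Neuron-like shares were 0.189% in AEVs and 0.0289% in PBS, from 10 UMIs and 1 UMI, which gives a ratio of 10.1 [1.43, 437]. The part of stray RNA in the microglia-like count was not tested. Oligodendrocyte-like nuclei held 0 Tnf UMIs in AEVs and 2 UMIs in PBS, and macrophage-like nuclei 2 UMIs in AEVs and 1 UMI in PBS. In the finer clusters, the Siglech-led microglia-like nuclei held 17 UMIs in AEVs and 4 UMIs in PBS (4.97 [1.62, 20.3]), and the Ccl12-led ones 7 UMIs in AEVs and 0 in PBS among 72 nuclei. Levels of Tnf in phagocyte-like and microglia-like nuclei had overlapping intervals in each library.

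**Figure D4:**
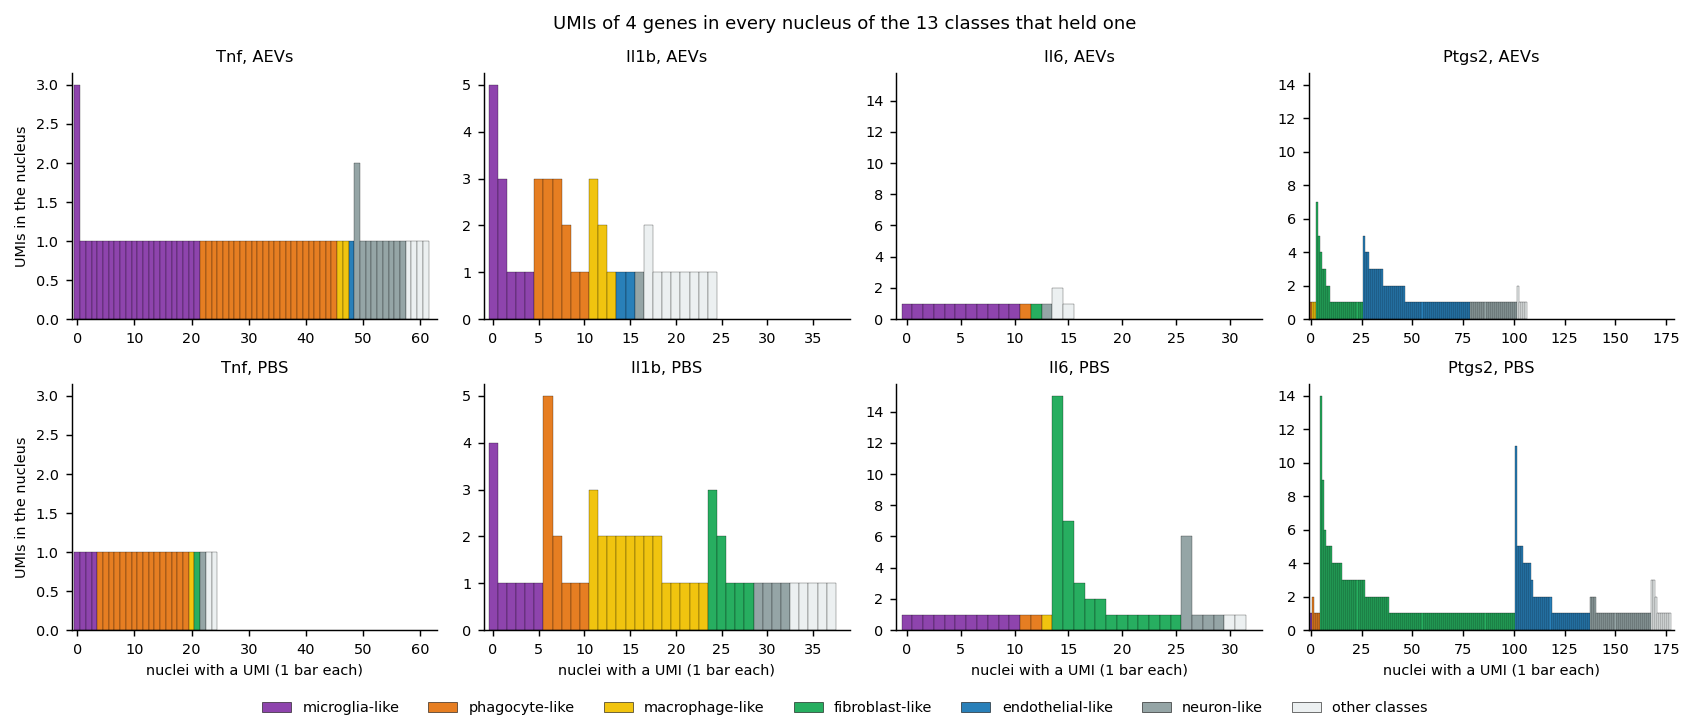
UMIs of Tnf, Il1b, Il6 and Ptgs2 (y axis) in every nucleus of the 13 classes that held one (1 bar per nucleus, x axis), AEVs in the upper row and PBS in the lower row, coloured by class. Tnf UMIs come 1 per nucleus almost throughout, while 15 of the 61 Il6 UMIs of the PBS library lie in 1 fibroblast-like nucleus.

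Il1a, which encodes IL-1 alpha and is active without cleavage, was a gene of phagocyte-like and microglia-like nuclei. Phagocyte-like nuclei held 69.9 CPM in AEVs and 62.2 CPM in PBS (106 and 131 UMIs, 1.12 [0.862, 1.46]), with a UMI in 11.9% of AEVs and 11.4% of PBS nuclei. Microglia-like nuclei held 46.0 CPM in AEVs and 35.1 CPM in PBS (86 and 57 UMIs, 1.31 [0.927, 1.87]). Both of these ratios have intervals that include 1. Over all nuclei 217 UMIs in AEVs and 235 UMIs in PBS gave 0.948 [0.784, 1.14]. Macrophage-like nuclei held 0 Il1a UMIs in AEVs and 7 UMIs in 4 PBS nuclei. Fibroblast-like nuclei held 0 in AEVs and 8 UMIs in 7 PBS nuclei. With 3 UMIs put in place of 0 in the AEVs class, these ratios would be 0.597 and 0.690. Such values leave out counting error in PBS and are not ends of an interval.

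Il1b, which encodes IL-1 beta, was counted in 25 AEVs nuclei and 38 PBS nuclei, with 42 and 58 UMIs (0.743 [0.487, 1.12]). The highest level was in macrophage-like nuclei, 26.1 CPM in AEVs and 68.8 CPM in PBS, from 6 UMIs in 3 AEVs nuclei and 22 UMIs in 13 PBS nuclei (0.380 [0.126, 0.966]). UMIs of 1 nucleus are not independent, so this interval is narrower than the number of nuclei warrants. The macrophage-like class also differed in its makeup: 8 dendritic cell markers summed to 610 CPM in AEVs and 2629 CPM in PBS with none higher in AEVs, the T or NK cell list to 52.3 and 159 CPM, and 5 erythroid genes to 14106 and 500.2 CPM. Their part in the Il1b result was not tested. Phagocyte-like nuclei held 13 Il1b UMIs in 6 AEVs nuclei and 10 UMIs in 5 PBS nuclei (1.81 [0.732, 4.60]), and microglia-like nuclei 11 UMIs in 5 AEVs nuclei and 9 UMIs in 6 PBS nuclei (1.06 [0.400, 2.90]). Il1b in fibroblast-like nuclei was at 0 in AEVs and at 8 UMIs in 5 PBS nuclei. With 3 UMIs in place of 0 the ratio would be 0.690, which leaves out counting error in PBS.

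The level of Il1b was thus highest in macrophage-like nuclei and that of Il1a in phagocyte-like nuclei. Of the Il1a UMIs, 48.8% in AEVs and 55.7% in PBS came from phagocyte-like nuclei. Of the Il1b UMIs, 14.3% in AEVs and 37.9% in PBS came from macrophage-like nuclei, which made up 0.805% of AEVs nuclei and 1.40% of PBS nuclei.

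Of the 4 cytokine genes Il1b, Il1a, Tnf and Il6, most nuclei of the myeloid classes held none; Il18 is not counted here. A UMI of at least 1 of the 4 was found in 106 of 1235 AEVs and 71 of 972 PBS microglia-like nuclei (8.58% and 7.30%), in 14.8% and 13.3% of phagocyte-like nuclei, and in 3.97% and 8.25% of macrophage-like nuclei. UMIs of 2 or more of the 4 were found in 8 AEVs and 3 PBS microglia-like nuclei and in 7 AEVs and 4 PBS phagocyte-like nuclei.

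Nlrp3, the sensor around which the inflammasome forms, had intervals that include 1 in both classes where it was measured and in macrophage-like nuclei. Its level was 72.8 CPM in AEVs and 79.4 CPM in PBS in microglia-like nuclei (136 and 129 UMIs, 0.916 [0.715, 1.17]). Phagocyte-like nuclei had 38.9 CPM in AEVs and 47.0 CPM in PBS (59 and 99 UMIs, 0.828 [0.589, 1.15]), and macrophage-like nuclei 69.7 and 75.0 CPM (16 and 24 UMIs, 0.929 [0.461, 1.82]). The interval over all nuclei, [0.725, 1.03] around 0.866, includes 1 as well. Phagocyte-like nuclei led by Atp6v0d2 held 2 Nlrp3 UMIs in AEVs and 16 UMIs in PBS (0.278 [0.0310, 1.18]), against 62 and 83 UMIs in those led by Ccl4.

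Il18, the other substrate of the inflammasome, had a different distribution. Its pooled level was highest in the Enpp6-led oligodendrocyte-lineage clusters, with 139 CPM in AEVs and 138 CPM in PBS (949 and 960 UMIs, 1.00 [0.915, 1.10]), close to microglia-like nuclei with 144 CPM in AEVs and 108 CPM in PBS (270 and 175 UMIs, 1.34 [1.10, 1.63]). Oligodendrocyte-like nuclei followed with 115 CPM in AEVs and 120 CPM in PBS (0.956 [0.855, 1.07]). Precursor-like nuclei stood at 109.7 CPM in AEVs and 80.1 CPM in PBS (152 and 151 UMIs, 1.37 [1.09, 1.73]), and astrocyte-like nuclei at 92.3 and 86.9 CPM (1.06 [0.917, 1.23]). In ependymal-like nuclei 33 UMIs in AEVs and 14 UMIs in PBS gave 2.18 [1.14, 4.42], at 47 UMIs short of the minimum for a measured gene.

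Over all nuclei, Il18 had 3342 UMIs in AEVs and 3185 UMIs in PBS (1.08 [1.03, 1.13]), close to the median of all genes. The Enpp6-led clusters gave 28.4% of them in AEVs and 30.1% in PBS, and microglia-like nuclei 8.08% in AEVs and 5.49% in PBS. A UMI was found in 18.6% of AEVs and 15.5% of PBS microglia-like nuclei, and in 12.6% and 10.3% after thinning. Of the finer microglia-like clusters, the Siglech-led had 139 CPM in AEVs and 99.3 CPM in PBS (1.40 [1.12, 1.75]). The Ccl12-led had 156 CPM in AEVs and 212 CPM in PBS (94 and 30 UMIs, 0.737 [0.484, 1.15]); the intervals of these clusters overlap, and the difference between them was not tested.

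Il6, a cytokine that fibroblasts and myeloid cells can secrete, was counted less often in AEVs, and its PBS UMIs were most numerous in fibroblast-like nuclei. Over all nuclei there were 17 UMIs in 16 AEVs nuclei and 61 UMIs in 32 PBS nuclei (0.286 [0.157, 0.496]). Fibroblast-like nuclei held 1 UMI in AEVs, and 36 UMIs in 12 nuclei in PBS (0.777 and 15.2 CPM, 0.0511 [0.00126, 0.304]). The 12 PBS nuclei held 15, 7 and 3 UMIs in 1 nucleus each, 2 UMIs in 2 nuclei and 1 UMI in 7. Here too the interval treats UMIs of 1 nucleus as independent. Without the nucleus that held 15, and without the only AEVs nucleus, 0 UMIs in AEVs and 21 UMIs in PBS remained. With 3 UMIs in place of 0 the ratio would be 0.263, which leaves out counting error in PBS.

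Most of the Il6 UMIs of the PBS fibroblast-like nuclei were in 1 finer cluster, while the nuclei that held one were spread over 3. The cluster led by Ranbp3l held 0 Il6 UMIs in its 252 AEVs nuclei and 29 UMIs in 7 of its 214 PBS nuclei. The Col1a1-led cluster held 4 UMIs in 4 PBS nuclei, the Slc47a1-led 1 UMI in AEVs and 4 UMIs in 2 PBS nuclei, and the Adamts12-led none in either library. In microglia-like nuclei 11 nuclei in AEVs and 11 in PBS held 1 Il6 UMI each (5.89 and 6.77 CPM, 0.869 [0.342, 2.21]). Neuron-like nuclei held 1 UMI in AEVs and 9 UMIs in PBS, 6 of which were in 1 nucleus.

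Ptgs2, the inducible cyclooxygenase that makes prostaglandin precursors, was a gene of vessels and fibroblasts in these libraries. Over all nuclei it had 162 UMIs in 107 AEVs nuclei and 319 UMIs in 178 PBS nuclei (2.35 and 4.52 CPM, 0.521 [0.429, 0.632]). Fibroblast-like nuclei held 42 UMIs in 23 AEVs nuclei and 183 UMIs in 96 PBS nuclei (32.6 and 77.2 CPM, 0.422 [0.295, 0.594]), and 1.36% of genes were as low or lower there. A UMI was present in 4.01% of AEVs and 9.88% of PBS fibroblast-like nuclei, and in 1.65% and 5.18% after thinning; in neuron-like nuclei the unthinned shares were 0.484% and 0.868%. No single nucleus set the result, since 35 and 169 UMIs remained without the nucleus with most UMIs in each library (0.381 [0.257, 0.551]).

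All 4 finer fibroblast-like clusters were lower in AEVs for Ptgs2. The Ranbp3l-led cluster held 25 UMIs in AEVs and 72 UMIs in PBS (0.402 [0.245, 0.642]), the Slc47a1-led 15 and 79 UMIs (0.529 [0.283, 0.927]), the Col1a1-led 2 and 15 UMIs (0.318 [0.0352, 1.37]), and the Adamts12-led 0 UMIs in AEVs and 16 UMIs in 4 PBS nuclei. Endothelial-like nuclei held 88 UMIs in 53 AEVs nuclei and 82 UMIs in 37 PBS nuclei (108 and 139 CPM), and the interval [0.567, 1.06] around 0.775 includes 1. Fibroblast-like nuclei made up 3.66% of the AEVs library and 7.01% of the PBS library. When both libraries were weighted to the same mix of clusters the Ptgs2 ratio was 0.643. Microglia-like nuclei held 0 Ptgs2 UMIs in AEVs and 1 UMI in PBS, which allows up to 1.60 CPM in AEVs.

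Few members were measured in any 1 class. Of 6 members measured in microglia-like nuclei, 5 stood higher in AEVs, where 56.5% of all genes did, and Nfkbia alone was past the fold, where 12.3% of all genes were. In phagocyte-like nuclei 4 of 6 were higher, beside 54.4% of all genes, with Nfkbia, Tlr2 and Tlr4 past the fold, beside 10.7%. Both measured members of macrophage-like nuclei, Nfkbia and Tlr4, were past the fold higher, beside 10% of all genes. In fibroblast-like nuclei Nfkbia was past the fold higher and Ptgs2 and Tlr4 past it lower, of 4 measured, beside 11.9% of all genes higher and 7.08% lower. Tnf, Il1b and Il6 reached 50 UMIs in no class, so they are in none of these counts.

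The wider pathway was described by 9 lists with 117 genes, of which 113 were measured over all nuclei and 77 in microglia-like nuclei. The lists include the members Nfkbia, Tlr2, Tlr4, Nlrp3, Il1b, Il18 and Ptgs2, so their counts are not independent of the results above. Some genes, Nfkbia among them, recur between lists. Over all nuclei, 5 of the 113 were past the fold higher, where 10.4% of all genes were, and 12 past it lower, where 4.64% were. List medians lay between -0.13 and 0.11 on the log2 scale, near the 0.10 of all genes. Of all measured genes 61.9% were higher over all nuclei, to be set beside the list counts that follow. The 5 NF-kappaB subunits were split, 2 higher and 3 lower, with Relb at 1.16 and Rel at 0.767. Of the 15 kinases and adaptors 5 were higher and 10 lower; Traf6, a ubiquitin ligase downstream of Toll-like and IL-1 receptors, was at 1.37 and higher in all 9 classes where it was measured, and Ikbke was at 0.648. Of 12 inhibitors and deubiquitinases 6 were higher and 6 lower, with Nfkbia past the fold on the higher side and Nlrc3, a dampener of innate signalling, past it on the lower side (316 and 677 UMIs, 0.479).

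Toll-like receptors and adaptors were 12 higher and 7 lower of 19, with Cd14, the co-receptor of TLR4, at 1.51 (1182 and 805 UMIs) and Tlr8 at 0.533. In the inflammasome list 5 were higher and 8 lower of 13; Txnip, a stress-induced thioredoxin-binding protein, was at 1.75 and Nlrp1b at 0.528. Cytokine receptors and antagonists were 7 higher and 4 lower of 11, with the IL-18 receptor chains Il18r1 (20 and 56 UMIs, 0.367) and Il18rap (32 and 65 UMIs, 0.505) lowest. Both chains are also expressed by T and NK cells, and the libraries held 31 AEVs and 142 PBS T or NK cell-like nuclei. The part of those nuclei in these ratios was not tested. The prostaglandin list was 7 higher and 6 lower of 13, with 3 past the fold lower, among them Ptgs2 and Tbxas1, the thromboxane synthase (1621 and 2822 UMIs, 0.590), which was past the fold lower in 6 of 7 classes. Of 12 measured anti-inflammatory brakes 7 were higher and 5 lower, and none was past the fold.

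The list of genes known to respond to NF-kappaB, with Nfkbia itself among them, is given by class. Differences between classes were not tested. In microglia-like nuclei 11 of 13 were higher in AEVs, 7 past the fold higher and 1 past it lower (12.3% and 5.66% of all genes), with a median log2 ratio of 0.59 where all genes had 0.06. Next to Nfkbia, the ubiquitin ligase gene Birc3 was at 1.91 (147 and 67 UMIs), and the chemokine gene Ccl4 went the other way at 0.589 (61 and 90 UMIs). Across the 7 classes where it was measured, Birc3 was higher in 3, past the fold higher in 2 and past it lower in 4. In phagocyte-like nuclei 12 of 15 were higher, 5 past the fold (10.7% of all genes, list median 0.36), and in oligodendrocyte-like nuclei all 6 measured were higher, 3 past the fold (13.7% of all genes, 0.60). Endothelial-like nuclei, where the Nfkbia interval included 1, had 7 of 9 higher, 4 past the fold higher and 1 past it lower (9.63% and 6.18% of all genes, 0.58). Fibroblast-like nuclei had 6 higher and 9 lower of 15, with 4 past the fold lower (7.08% of all genes, list median -0.32). Nfkbia was among those past the fold higher there (1.77, beside 11.9% of all genes). Over all nuclei the list had 11 higher and 10 lower (0.07), where 61.9% of all genes were higher. Of all genes measured, 56.5% were higher in microglia-like, 54.4% in phagocyte-like, 61.1% in oligodendrocyte-like, 54.8% in endothelial-like and 58.8% in fibroblast-like nuclei.

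The other lists in microglia-like nuclei were nearer to the median of all genes, of which 56.5% were higher. Inhibitors and deubiquitinases were 6 higher and 2 lower of 8, with Nfkbiz at 1.64 (96 and 51 UMIs), and the brakes 5 higher and 2 lower of 7, with Zfp36, which destabilises cytokine mRNAs, at 1.82 (115 and 55 UMIs). Across the classes where they were measured, Nfkbiz was higher in 5 of 9 and Zfp36 in 4 of 8. Toll-like receptors and adaptors were 8 higher and 5 lower of 13, with Cd14 at 1.78 (583 and 285 UMIs). Of the NF-kappaB subunits 2 were higher and 2 lower, and of the kinases and adaptors 7 and 7. The inflammasome list was 5 higher and 6 lower of 11, with Nlrp1b at 0.495 (192 and 337 UMIs), cytokine receptors and antagonists 4 higher and 1 lower of 5, and the prostaglandin list 2 higher and 4 lower of 6, with Hpgd, which degrades prostaglandins, at 0.612 and Tbxas1 at 0.649.

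**Figure D5:**
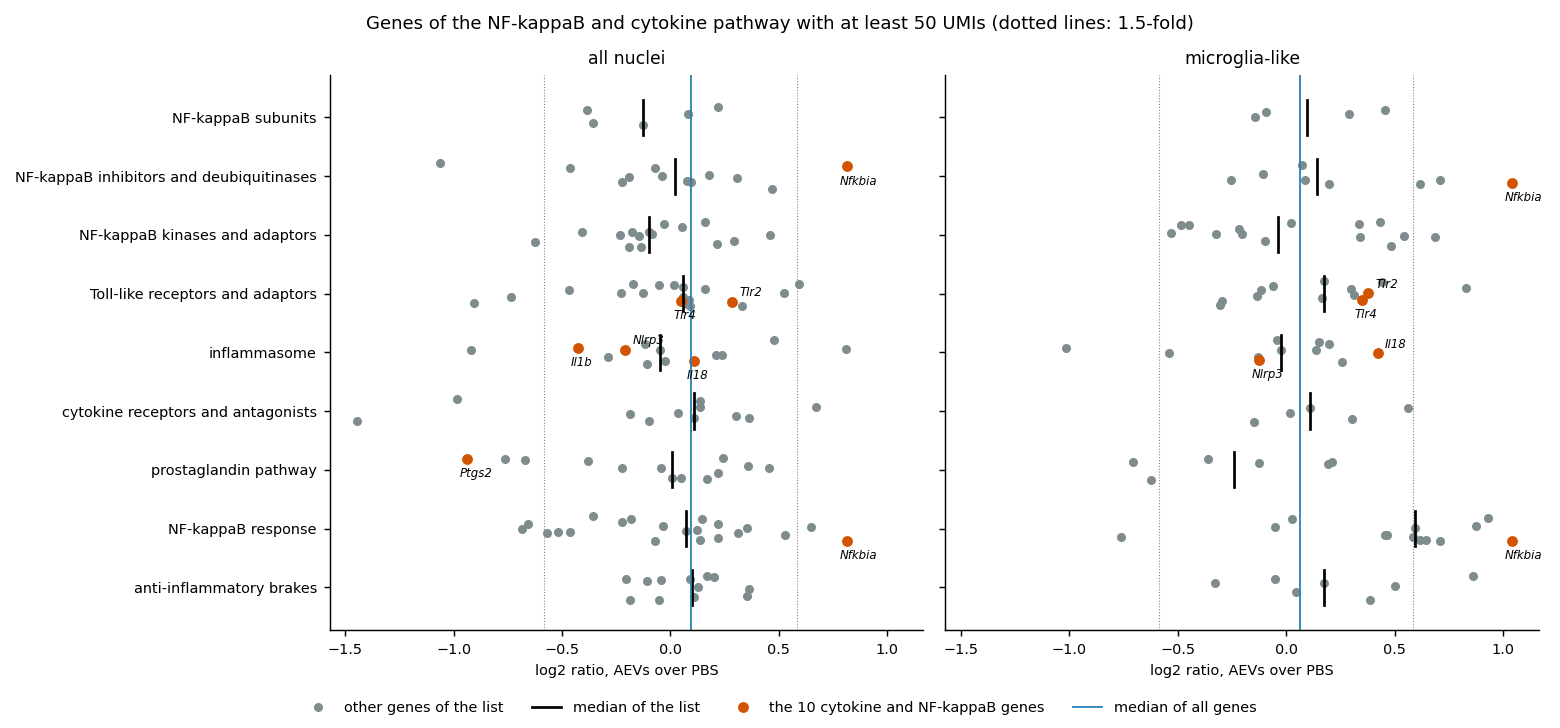
Log2 ratio of AEVs over PBS (x axis) of every measured gene of 9 pathway lists (rows) over all nuclei (left) and in microglia-like nuclei (right); orange points are members of the 10, black bars list medians and the blue line the median of all genes. In microglia-like nuclei the median of the NF-kappaB response list is 0.59 and that of the prostaglandin list -0.24.

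Across the 11 named classes in both libraries (22 values per gene, which share libraries and depth), the genes with the most similar profiles were sought. By Pearson correlation of log2(CPM + 1), given as a description, the gene most like Nlrp3 was Susd3 (0.96), that most like Tlr4 was Birc3 (0.96), Il1a was closest to Glrp1 (0.95), Tlr2 to Bach2os (0.95) and Il1b to C130026I21Rik (0.92). Casp4, the inflammatory caspase that senses lipopolysaccharide, came second for Tlr4 at 0.96. Ptgs2 was closest to Slc38a11 (0.92), a gene that led the mural-like cluster. The 2 broadly expressed members had weaker matches: Nfkbia was closest to Nr1h2 (0.89), the nuclear receptor LXR beta, and Il18 to 1110059E24Rik (0.82).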

How the data were processed

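Raw UMI counts per gene and barcode were deposited by the authors as 1 sparse matrix for each library (AEVs and PBS, 1 library each, 3 mice pooled). Nuclei were isolated from frozen cord with IGEPAL CA-630 and libraries made with a SeekOne DD 3′ kit, per the labels' protocols; the submitters' processing notes name mm10 and Seurat, and the aligner, counter and annotation are not stated in the sources used here. A 3′ nuclear count depends on reads near the gene's end and on unspliced RNA.

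From these counts, nuclei with at least 300 genes, 500 UMIs and under 5% mitochondrial UMIs were kept (4 and 5 barcodes failed on genes, 103 and 527 on mitochondrial share). Scrublet in scanpy 1.11.5 removed 1302 (7.68%) and 935 (6.32%) doublets at a score of 0.15, set for both libraries after the automatic threshold marked 0 nuclei in PBS. Libraries were clustered together with Leiden at resolution 1 on 30 principal components, without batch correction. A cluster took the class with most markers raised at least 2-fold, unless another class tied or led its top 10 genes. UMIs were summed per class and library; kept nuclei held 68824403 and 70636535 UMIs. Intervals are exact (Poisson for levels, Clopper-Pearson for shares and, conditional on the sum, for ratios), at 95%, and cover counting error only, since UMIs of 1 nucleus are not independent. Where a class held 0 UMIs in 1 library, a value was computed with 3 UMIs in their place. It leaves out counting error in the other library. T or NK cell-like (31 and 142) and mural-like (55 and 44) nuclei were too few for a class. Whether the nuclei of a library come equally from its mice is unknown.

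The members and lists were chosen with earlier results of these data known. Of each list, the 2 highest and 2 lowest genes over all nuclei and in microglia-like nuclei could be named, and for likeness the 3 genes with the highest correlation. Alternatives changed the scaling (TMM in edgeR 4.0.16, median ratio), thinning, filters, clustering and doublet treatment. The counting steps were tested on simulated data.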

Additional observations from a re-analysis of the deposited data

Results flagged for a closer look

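Tlr4 went in opposite directions in classes under the same comparison. Its ratio of AEVs over PBS was 1.54 in phagocyte-like and 1.27 in microglia-like nuclei, with counting intervals above 1, and 0.573 in fibroblast-like nuclei, with an interval below 1. The difference between classes was not tested, since each group is 1 library.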

How the results depend on the processing

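No paired analysis was possible because each group is 1 library. Of 506 values recomputed under other settings, 475 stayed within the counting interval or within 1.5 times, 31 moved and 0 changed from a called direction to the other. Over all nuclei, weighting both libraries to the same cluster mix gave ratios of 1.18 for Il1a, 1.00 for Il1b, 1.01 for Nlrp3, 0.643 for Ptgs2, 1.46 for Tlr2, 1.29 for Tlr4 and 1.14 for Il18. Scaling by TMM gave 1.64 for Nfkbia and 1.01 for Il18, the median ratio 1.65 and 1.01, and thinning 1.86 and 1.02. Thinned shares of nuclei with a UMI had ratios of 3.75 for Tnf, 1.76 for Nfkbia, 1.01 for Tlr4 and 1.02 for Il18, and Nfkbia in fibroblast-like nuclei was 1.52 when thinned. TMM moved all log2 ratios by -0.10 over all nuclei. Of the pathway lists over all nuclei, 2 genes were past the fold higher under TMM and 7 past it lower at a minimum of 200 UMIs; in microglia-like nuclei 19 were higher at a minimum of 20 UMIs and 4 at 200. At 2-fold the background was 3.00% higher and 1.48% lower. Over every setting run, the ratio ranged from 2.04 to 3.87 for Tnf, 0.26 to 0.49 for Il6 and 0.47 to 0.64 for Ptgs2 over all nuclei, 4.60 to 8.72 for Tnf in microglia-like and 2.14 to 2.40 for Nfkbia in oligodendrocyte-like nuclei, and 0.93 to 1.13 for Nfkbia in endothelial-like nuclei. Tlr2 (1.39 to 1.65) and Tlr4 (1.31 to 1.63) in phagocyte-like nuclei were past the fold in 7 of 9 settings each. In neuron-like nuclei Tlr2 reached 1.60 and Tlr4 1.71 under 1 setting each, against 0.768 and 0.710. Leaving out the nucleus with most UMIs, and the interferon-led microglia-like cluster, were chosen after seeing the data. At Leiden resolution 0.5 phagocyte-like nuclei merged with macrophage-like ones, and with doublets kept no macrophage-like class was found, so those values were not run. The causes of these shifts were not tested. Tnf, Il1b and Il6, with fewer than 50 UMIs in every class, are limited by counting.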
